A study of Canis lupus familiaris with 12 samples.

Results

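The genes described here encode the enzymes that build purines, pyrimidines and the deoxynucleotides of DNA. They were chosen by a list of 36 gene symbols, and each gene was read from its probe set with the highest mean level. On the array, 33 of the 36 genes were found, through 65 probe sets, among 15115 genes with a name in the annotation, and GART, CTPS1 and DCTD were not. The list holds 15 purine genes, 9 pyrimidine genes and 12 deoxynucleotide genes, of which 14, 8 and 11 were measured. All arrays carried RNA from C2, a line grown from a dog mast cell tumour whose KIT receptor has an internal duplication and signals without its ligand. Masitinib is a tyrosine kinase inhibitor that acts on KIT, on the platelet-derived growth factor receptors alpha and beta, and on Src family kinases. The groups were cells kept with 100 nM masitinib for 12, 24 and 72 h, and untreated cells taken at the start (0 h), with 3 arrays each and 12 arrays in all. The samples were flasks of this one line, so p-values cover only the variation among these flasks. The effect of masitinib cannot be told apart from that of culture time, because untreated cells of later times were not analysed here.

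Purine synthesis starts from phosphoribosyl pyrophosphate (PRPP) and builds the ring on it step by step up to inosine monophosphate (IMP), from which AMP and GMP branch off. Pyrimidine synthesis makes the ring first and attaches it to PRPP to give uridine monophosphate (UMP), and cells can also recover bases and nucleosides by salvage enzymes. Ribonucleotide reductase turns ribonucleotides into deoxynucleotides, and thymidylate is then made by a methylation step, while mitochondria keep salvage kinases of their own. Dividing cells need more of these products than resting cells, and several of the deoxynucleotide genes are known to be read mainly around S phase.

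Nucleotide synthesis genes fell widely in masitinib-treated cells, most often at 24 h, when 21 of the 33 passed the test as falls. The values were log2 expression levels, and a gene was called when limma gave a Benjamini-Hochberg adjusted p under 0.001 over 42924 probe sets and the change exceeded 1.5-fold. At 12 h, 13 of the 33 genes fell and 0 rose, where 6.3% of all genes fell and 4.26% rose. At 24 h, those 21 fell and 2 rose, where 10.0% of all genes fell and 8.01% rose. At 72 h, 16 fell and 2 rose, where 11.0% of all genes fell and 8.73% rose. Counted in either direction, 10.6%, 18.0% and 19.8% of all genes were called at 12, 24 and 72 h. The median log2 change of the 33 genes was -0.46, -0.75 and -0.58 at 12, 24 and 72 h, where the median over all genes was 0.011, 0.033 and 0.023. These 3 comparisons share the untreated arrays. In such bulk RNA, fewer cells that express a gene and less RNA per cell cannot be told apart.

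**Figure D1:**
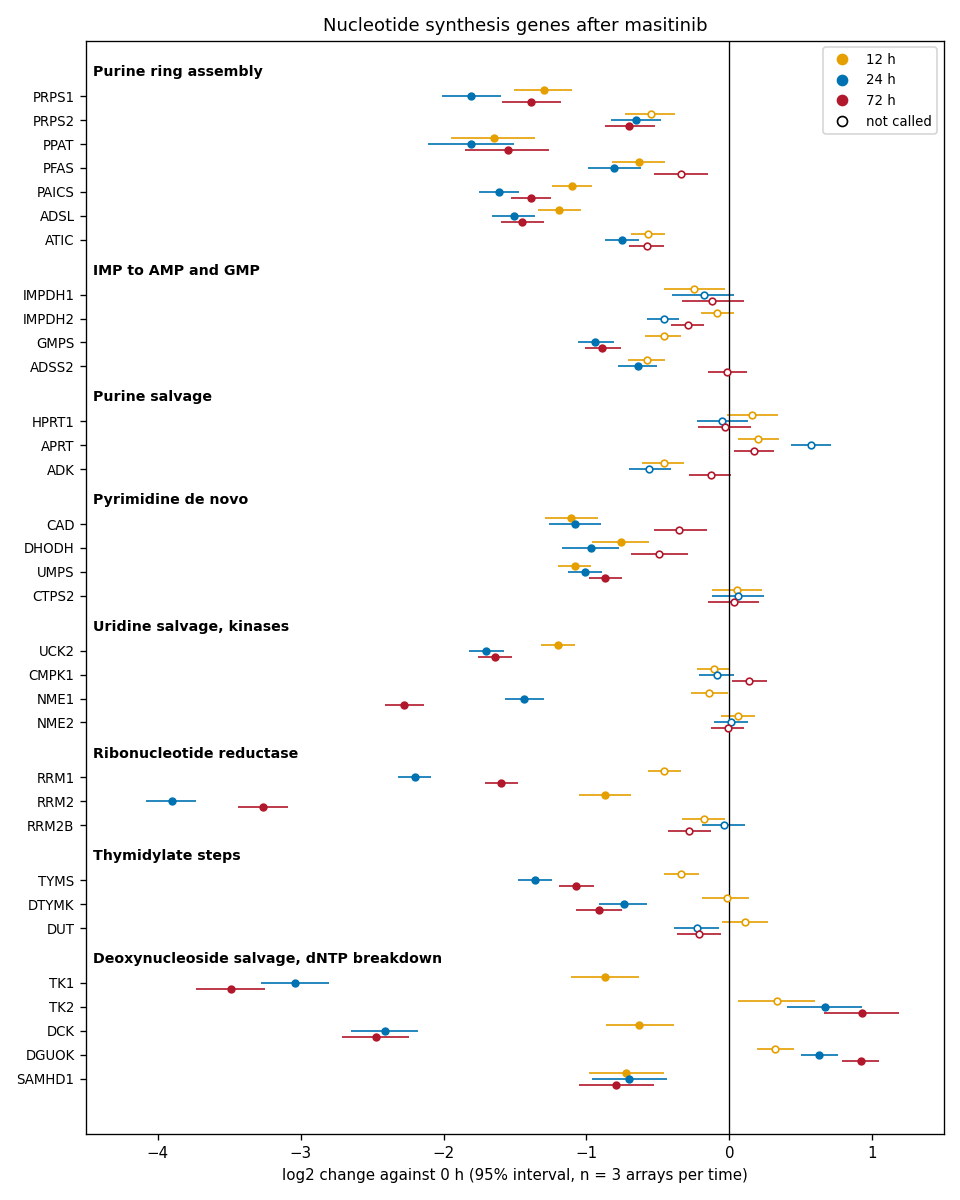
Log2 change of each gene after 12 h (orange), 24 h (blue) and 72 h (red) of masitinib against untreated cells (x axis), with genes grouped by role down the page. The group labelled purine ring assembly also holds PRPS1 and PRPS2, which make PRPP. Bars are 95% intervals from limma with 3 arrays per time, filled points were called and open points were not. RRM2, TK1, DCK and NME1 reach furthest to the left, and TK2 and DGUOK are the filled points to the right of 0.

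A set of 10 genes fell at all 3 times, namely PRPS1, PPAT, PAICS, ADSL, UMPS, UCK2, RRM2, TK1, DCK and SAMHD1. For DCK and SAMHD1 the call at 12 h depended on single arrays, as given below. The share of all genes that fell at all 3 times was not counted, and cannot exceed the 6.3% that fell at 12 h. Another 10 passed the test in none of the comparisons, namely IMPDH1, IMPDH2, HPRT1, APRT, ADK, CTPS2, CMPK1, NME2, RRM2B and DUT. For APRT, ADK and DUT this held for the brightest probe set only, and other probe sets of these genes were called, as given below. The share of all genes without any call was not counted either. Among the 33 genes, the treated arrays were all below the untreated arrays for 25, 26 and 24 genes at 12, 24 and 72 h, where this held for 22.9%, 24.8% and 26.4% of all genes. They were all above them for 4, 3 and 4 genes, where this held for 22.1%, 28.2% and 26.3% of all genes. The poly-A control RNAs, which are spiked in during labelling and were read by 36 probe sets, had higher values on treated arrays, by 0.293, 0.603 and 0.471 on the log2 scale at the 3 times. When each array was scaled to them, the median change of all genes became -0.282, -0.57 and -0.448, and 20, 29 and 25 of the 33 genes fell while 0 rose. Under that scaling 14.3%, 46.8% and 30.7% of all genes fell and 1.84%, 2.08% and 3.58% rose.

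The falls were then counted by arm. Of the 14 purine genes, 5, 9 and 6 fell at 12, 24 and 72 h, and 0 rose. Of the 8 pyrimidine genes, 4, 5 and 3 fell at these times, and 0 rose. Of the 11 deoxynucleotide genes, 4, 7 and 7 fell, and 2 rose at both later times. Among all genes, 6.3%, 10.0% and 11.0% fell at these times and 4.26%, 8.01% and 8.73% rose. The median log2 change at 12, 24 and 72 h was -0.56, -0.7 and -0.46 for purine genes, -0.45, -0.99 and -0.42 for pyrimidine genes, and -0.34, -0.74 and -0.91 for deoxynucleotide genes. The differences between arms in these medians were not tested. Between 12 h and 24 h, 6 deoxynucleotide genes, 1 pyrimidine gene and 0 purine genes fell, where 3.1% of all genes fell. The 0 for purine genes rested on the brightest probe sets and the deposited scaling. PAICS was called in this step by its other probe set (-0.69) and by the mean of its probe sets (-0.6). Scaled to the poly-A controls, PRPS1, PAICS, ADSL, IMPDH2 and GMPS fell too, where 8.06% of all genes fell.

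**Figure D2:**
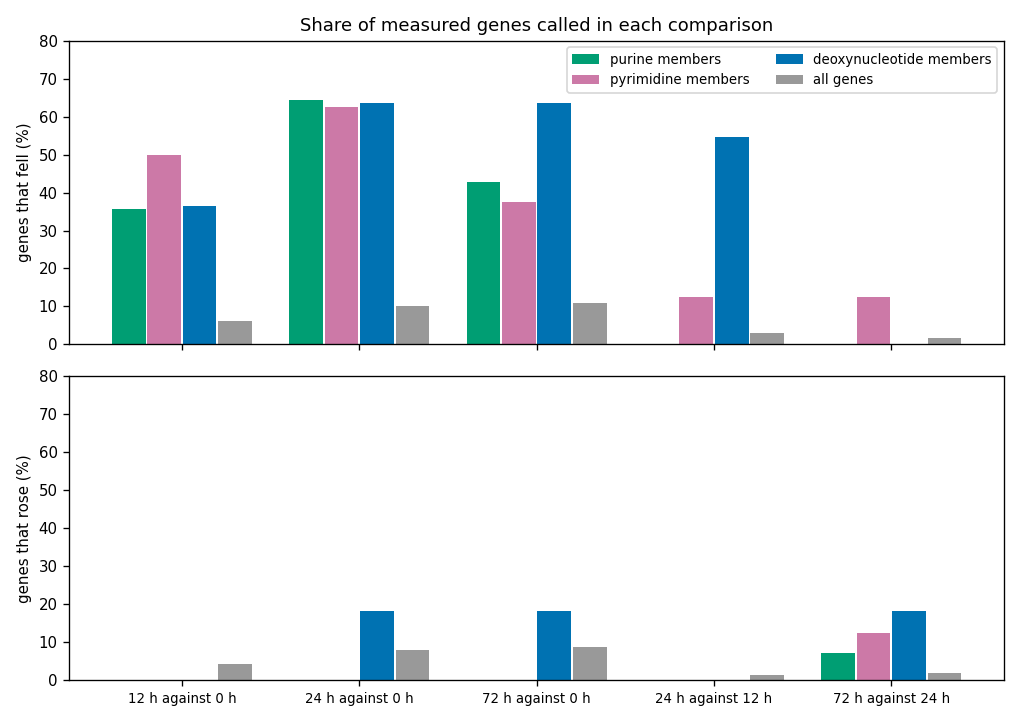
Share of measured genes that fell (upper panel, percent) and rose (lower panel, percent) in each of the 5 comparisons (x axis), for the purine, pyrimidine and deoxynucleotide genes and for all genes. The blue bar for 24 h against 12 h stands for 6 of 11 deoxynucleotide genes that fell.

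Of the 8 listed genes that make PRPP or build the purine ring on it up to IMP, 7 were measured. All 7 fell at 24 h and 5 of them at 12 h, where 10.0% and 6.3% of all genes fell. With the mean of all probe sets of a gene, ATIC and PRPS2 were no longer called at 24 h (-0.37 and -0.51). PPAT, the amidotransferase that commits PRPP to the purine ring, had log2 levels of 7.48, 7.58 and 7.40 on the untreated arrays, 5.55, 5.94 and 6.01 at 12 h, 5.70, 5.52 and 5.80 at 24 h, and 6.12, 6.02 and 5.65 at 72 h. All 9 treated arrays lay more than 1 log2 unit below all untreated arrays, and the times after treatment overlapped each other. PPAT fell at all 3 times, with log2 changes of -1.65, -1.81 and -1.55 (SE 0.137, limma adjusted p = 1.24e-06, 2.37e-07 and 8.59e-07), a 3.15-fold, 3.51-fold and 2.94-fold fall.

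ADSL, adenylosuccinate lyase, works both in ring assembly and in the branch to AMP. Its log2 levels were 11.12, 11.18 and 11.20 on the untreated arrays, 10.03, 9.92 and 9.99 at 12 h, 9.80, 9.60 and 9.57 at 24 h, and 9.71, 9.72 and 9.73 at 72 h. The treated arrays lay below the untreated arrays at each time, and the changes were -1.19, -1.51 and -1.45 (SE 0.0692, limma adjusted p at most 6.25e-08). PAICS, which carries 2 consecutive activities in the middle of the ring assembly, changed by -1.10, -1.61 and -1.39 at 12, 24 and 72 h (SE 0.0641). PPAT and PAICS are adjacent genes in the dog assembly UU_Cfam_GSD_1.0.

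PRPP itself is made by PRPS1 and PRPS2, which are close paralogues. PRPS1 had log2 levels of 8.71, 8.90 and 8.74 on the untreated arrays, 7.45, 7.34 and 7.65 at 12 h, 6.83, 6.96 and 7.13 at 24 h, and 7.46, 7.36 and 7.37 at 72 h. Its lowest arrays were those of 24 h, and none of the treated arrays reached the untreated ones. PRPS1 fell at 12, 24 and 72 h, by log2 changes of -1.30, -1.81 and -1.39 (SE 0.0942), while the partial return of 0.42 between 24 h and 72 h did not pass the test (limma adjusted p = 0.0069). The other probe set of PRPS1, a dim one at percentile 17.9, gave 0.01, 0.1 and 0.17 at 12, 24 and 72 h, without a call.

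PRPS2 had log2 levels of 7.96, 8.05 and 7.97 on the untreated arrays, 7.36, 7.46 and 7.49 at 12 h, 7.50, 7.17 and 7.35 at 24 h, and 7.29, 7.25 and 7.34 at 72 h. All treated arrays were lower than the untreated ones. PRPS2 fell at the later times (-0.65 and -0.70, SE 0.0798), and its change of -0.55 at 12 h was under 1.5-fold. Without the second array of 24 h the change then was -0.57 and no longer called, and the 3 other probe sets of PRPS2 gave -1.42, -0.85 and 0.17 at 72 h, the last from a very dim probe set.

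PFAS and ATIC completed the ring enzymes. PFAS, which adds the nitrogen of glutamine in the middle of the pathway, changed by -0.63 and -0.81 at 12 and 24 h, both called, and by -0.34 at 72 h, which did not pass the test. Without the first array of 12 h the change of PFAS at that time was -0.57, under the threshold. ATIC, which carries the last 2 activities up to IMP, was called only at 24 h (-0.75, SE 0.0545, limma adjusted p = 1.55e-07). Its changes of -0.57 at 12 h and -0.58 at 72 h were just under 1.5-fold and reached -0.59, and a call, when the third array of 12 h or either of the last 2 arrays of 72 h was left out.

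Past IMP, 2 of the 4 genes fell at 24 h, where 10.0% of all genes fell. GMPS, the last enzyme to GMP, had log2 levels of 12.03, 12.04 and 12.02 on the untreated arrays, 11.53, 11.57 and 11.61 at 12 h, 11.16, 11.07 and 11.06 at 24 h, and 11.09, 11.21 and 11.13 at 72 h. It was lower on every treated array, and it fell at the later times (-0.94 and -0.89, SE 0.0575, limma adjusted p = 3.35e-08 and 4.83e-08). Its change of -0.46 at 12 h was under the fold threshold, and the mean over its 3 probe sets gave -0.55 at 72 h, without a call.

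ADSS2, which makes the first step from IMP towards AMP, had log2 levels of 11.46, 11.47 and 11.51 on the untreated arrays, 10.90, 10.89 and 10.90 at 12 h, 10.86, 10.82 and 10.82 at 24 h, and 11.55, 11.34 and 11.49 at 72 h. The arrays of 72 h overlapped the untreated ones, while those of 12 h and 24 h lay below both. ADSS2 fell at 24 h (-0.64, SE 0.0615, limma adjusted p = 2.1e-06), differed by -0.02 at 72 h, and rose between 24 h and 72 h (0.63, adjusted p = 1.65e-05). Without the first array of 72 h that last change was 0.58 and not called, and without the first untreated array the change of -0.58 at 12 h became -0.59 and was called.

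The IMP dehydrogenases, which open the branch to GMP, did not pass the test. IMPDH2 had log2 levels of 11.70, 11.75 and 11.75 on the untreated arrays, 11.66, 11.60 and 11.68 at 12 h, 11.32, 11.26 and 11.23 at 24 h, and 11.42, 11.45 and 11.44 at 72 h. Its arrays were lower than the untreated ones at each time, most at 24 h (-0.46, SE 0.0539), but by under 1.5-fold. IMPDH1 had 6.33, 6.39 and 6.63 on the untreated arrays, 6.17, 6.33 and 6.12 at 12 h, 6.34, 6.21 and 6.25 at 24 h, and 6.51, 6.21 and 6.28 at 72 h, so its arrays overlapped the untreated ones at 24 h and 72 h.

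The purine salvage genes did not pass the test at any time. HPRT1, which returns hypoxanthine and guanine to nucleotides, differed by 0.16, -0.05 and -0.03 at 12, 24 and 72 h (SE 0.0831). APRT, which does the same for adenine, differed by 0.20, 0.57 and 0.17 (SE 0.065). Its value at 24 h was just under 1.5-fold, and its 2 other probe sets each gave 0.69 and were called. The brightest probe set of APRT is of a kind that can bind related transcripts. The value for APRT at 24 h also became 0.59 to 0.60, with a call, when the second untreated array, the third untreated array or the third array of 24 h was left out. ADK, adenosine kinase, differed by -0.46, -0.56 and -0.13 (SE 0.0668), and its other probe set gave -0.62 at 24 h and was called. ADK gave -0.59 at 24 h, with a call, without the second untreated array or the third array of 24 h.

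**Figure D3:**
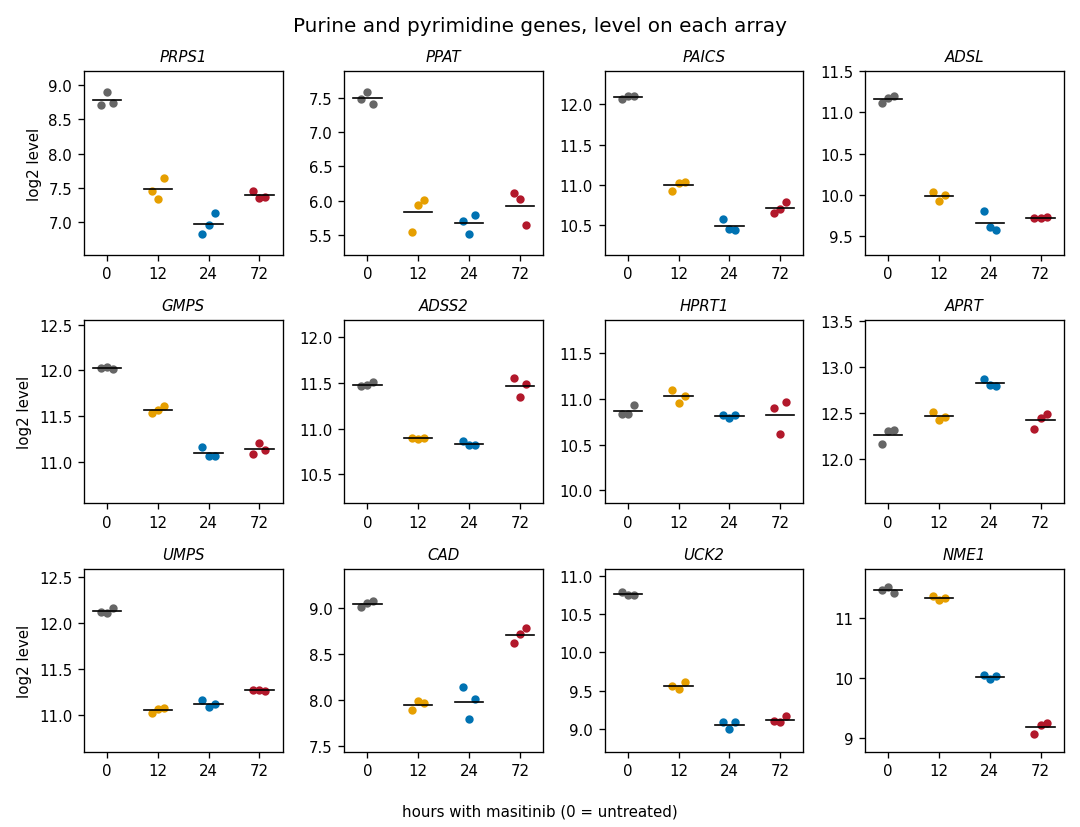
Log2 level on each array (y axis) at 0, 12, 24 and 72 h of masitinib (x axis) for 12 purine and pyrimidine genes. Points are arrays, 3 per time, and lines are means, and y axes differ between panels. PPAT, PAICS, ADSL, UMPS and UCK2 are lower at every time after treatment, ADSS2 is back at the untreated level at 72 h, and NME1 drops mainly from 24 h on.

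Pyrimidine ring synthesis fell early. The first 3 activities sit on CAD, the fourth is DHODH in the mitochondrial membrane, and the last 2 sit on UMPS. All 3 genes fell at 12 h and at 24 h, where 6.3% and 10.0% of all genes fell, and UMPS alone was still called at 72 h. UMPS had log2 levels of 12.12, 12.11 and 12.17 on the untreated arrays, 11.02, 11.06 and 11.07 at 12 h, 11.16, 11.08 and 11.12 at 24 h, and 11.27, 11.27 and 11.26 at 72 h. The treated arrays were all lower, and the changes were -1.08, -1.01 and -0.87 (SE 0.0531, limma adjusted p at most 2.98e-08).

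DHODH had log2 levels of 7.58, 7.60 and 7.64 on the untreated arrays, 6.75, 7.03 and 6.78 at 12 h, 6.71, 6.48 and 6.74 at 24 h, and 7.02, 7.22 and 7.13 at 72 h. It fell at 12 h and 24 h (-0.76 and -0.97, SE 0.0915), and its arrays of 72 h were still below the untreated ones (-0.49), under the fold threshold. CAD, whose array values are given after they were seen, had 9.02, 9.06 and 9.08 on the untreated arrays, 7.89, 7.99 and 7.97 at 12 h, 8.14, 7.79 and 8.01 at 24 h, and 8.62, 8.72 and 8.79 at 72 h. CAD fell at 12 h and 24 h (-1.11 and -1.08, SE 0.0832), and then rose between 24 h and 72 h (0.73, limma adjusted p = 5.3e-05). CTPS2, a CTP synthetase, differed by 0.03 to 0.06 at the 3 times and was read by a dim probe set, at percentile 16.8 of all.

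Of the uridine and nucleotide kinases, UCK2 was called from 12 h on and NME1 from 24 h on. UCK2, which phosphorylates uridine and cytidine for salvage, had log2 levels of 10.79, 10.75 and 10.75 on the untreated arrays, 9.57, 9.52 and 9.61 at 12 h, 9.09, 9.01 and 9.09 at 24 h, and 9.11, 9.09 and 9.18 at 72 h. Every treated array was lower by more than 1 log2 unit, and UCK2 fell at all 3 times (-1.20, -1.70 and -1.64, SE 0.0555, limma adjusted p at most 1.14e-08). CMPK1, which phosphorylates UMP and CMP, differed by -0.11, -0.09 and 0.14 and did not pass the test.

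NME1, a nucleoside diphosphate kinase, was called at the later times only. Its log2 levels were 11.46, 11.51 and 11.41 on the untreated arrays, 11.36, 11.29 and 11.32 at 12 h, 10.05, 9.99 and 10.03 at 24 h, and 9.08, 9.23 and 9.25 at 72 h. The arrays of each time formed a group of their own, in falling order. NME1 differed by -0.14 at 12 h and fell at the later times (-1.44 and -2.28, SE 0.0612, limma adjusted p = 1.28e-09 and 2.4e-11), 2.71-fold and 4.85-fold.

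NME2, the paralogue of NME1 and its neighbour in the dog assembly, had log2 levels of 13.72, 13.70 and 13.76 on the untreated arrays, 13.79, 13.78 and 13.80 at 12 h, 13.73, 13.76 and 13.73 at 24 h, and 13.78, 13.65 and 13.72 at 72 h. Its changes of 0.06, 0.01 and -0.01 did not pass the test, and when arrays were scaled to the poly-A controls the change at 24 h was -0.59 and was called. The 2 transcripts are similar in sequence, and the NME1 probe set is of a kind that can bind related transcripts, so the split between them is uncertain. A second probe set annotated to NME1 under another gene identifier gave -0.05, -0.95 and -1.46 at 12, 24 and 72 h, with calls at the later times.

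Ribonucleotide reductase is built of the large subunit RRM1 with the small subunit RRM2, or with RRM2B, which can take the place of RRM2 outside S phase. RRM2 showed the largest fall of the 33 genes at 24 h. Its log2 levels were 12.57, 12.54 and 12.55 on the untreated arrays, 11.57, 11.73 and 11.75 at 12 h, 8.79, 8.51 and 8.64 at 24 h, and 9.36, 9.17 and 9.32 at 72 h. No time overlapped another, and the arrays of 24 h were the lowest. RRM2 fell at all 3 times, by log2 changes of -0.87, -3.90 and -3.26 (SE 0.0817, limma adjusted p = 3.81e-06, 6.14e-12 and 1.44e-11), 1.83-fold, 15.0-fold and 9.61-fold. Its other probe set gave -0.86, -3.93 and -3.28.

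RRM1 had log2 levels of 11.55, 11.49 and 11.51 on the untreated arrays, 11.04, 11.04 and 11.08 at 12 h, 9.32, 9.28 and 9.34 at 24 h, and 9.92, 9.87 and 9.95 at 72 h. The order of the times was that of RRM2, with lower arrays at 24 h than at 72 h. RRM1 differed by -0.46 at 12 h and fell at the later times (-2.20 and -1.60, SE 0.0527, limma adjusted p = 1.66e-11 and 1.13e-10). RRM2B had 8.17, 8.29 and 8.10 on the untreated arrays, 8.08, 7.94 and 8.01 at 12 h, 8.14, 8.17 and 8.12 at 24 h, and 8.01, 7.85 and 7.86 at 72 h. Its differences of -0.18, -0.04 and -0.28 (SE 0.0698) did not pass the test.

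**Figure D4:**
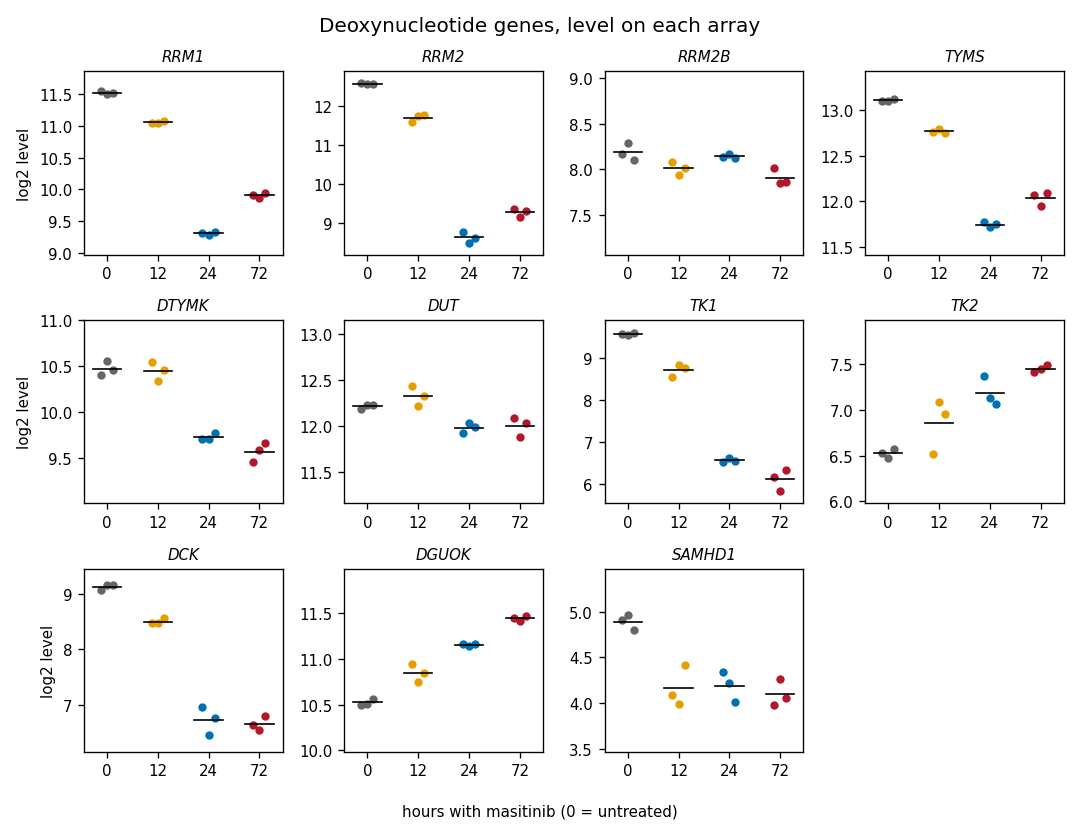
Log2 level on each array (y axis) at 0, 12, 24 and 72 h of masitinib (x axis) for the 11 measured deoxynucleotide genes. Points are arrays, 3 per time, and lines are means, and y axes differ between panels. RRM1, RRM2, TYMS, TK1 and DCK drop mainly between 12 h and 24 h, while TK2 and DGUOK climb through 72 h.

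Thymidylate synthesis fell at 24 h and 72 h, through TYMS and DTYMK. TYMS, which methylates dUMP, had log2 levels of 13.10, 13.10 and 13.12 on the untreated arrays, 12.76, 12.79 and 12.75 at 12 h, 11.77, 11.72 and 11.75 at 24 h, and 12.07, 11.95 and 12.09 at 72 h. All treated arrays were lower, and the fall was called at 24 h (-1.36) and 72 h (-1.07, SE 0.0559, limma adjusted p = 9.66e-10 and 6.7e-09). The 2 dimmer probe sets of TYMS gave larger changes, -2.02 and -2.04 at 24 h and -1.78 and -1.79 at 72 h.

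DTYMK, which phosphorylates thymidylate further, had log2 levels of 10.40, 10.56 and 10.46 on the untreated arrays, 10.55, 10.34 and 10.46 at 12 h, 9.71, 9.71 and 9.77 at 24 h, and 9.45, 9.58 and 9.66 at 72 h. The arrays of 12 h overlapped the untreated ones and those of 24 h and 72 h lay below them, and DTYMK fell at these times (-0.74 and -0.91, SE 0.075). DUT, which breaks down dUTP to dUMP, differed by 0.11, -0.23 and -0.21 (SE 0.0728) and did not pass the test.

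Deoxynucleoside salvage split between the cytosolic and the mitochondrial kinases. TK1, the cytosolic thymidine kinase, had log2 levels of 9.59, 9.57 and 9.62 on the untreated arrays, 8.56, 8.84 and 8.77 at 12 h, 6.52, 6.60 and 6.54 at 24 h, and 6.15, 5.83 and 6.33 at 72 h. No time overlapped another, and TK1 fell at 12, 24 and 72 h (-0.87, -3.04 and -3.49, SE 0.11, limma adjusted p = 4.71e-05, 3.25e-10 and 7.58e-11), which was 11.2-fold at 72 h. DCK, deoxycytidine kinase, which acts mainly outside mitochondria, had 9.07, 9.16 and 9.16 on the untreated arrays, 8.47, 8.48 and 8.56 at 12 h, 6.95, 6.45 and 6.76 at 24 h, and 6.64, 6.54 and 6.79 at 72 h. DCK fell at all 3 times (-0.63, -2.41 and -2.47, SE 0.108), with all treated arrays below the untreated ones and those of 24 h and 72 h overlapping. The call of DCK at 12 h was lost without any single array of 0 h or 12 h, the third of 24 h or the first of 72 h, with changes of -0.66 to -0.61 and limma adjusted p of 0.00111 to 0.00351.

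TK2 and DGUOK, the mitochondrial thymidine and deoxyguanosine kinases, were the only 2 of the 33 genes that rose against untreated cells by their brightest probe sets. APRT rose at 24 h by its 2 other probe sets, as given above. DGUOK had log2 levels of 10.50, 10.51 and 10.56 on the untreated arrays, 10.94, 10.75 and 10.84 at 12 h, 11.16, 11.14 and 11.16 at 24 h, and 11.45, 11.41 and 11.47 at 72 h. The arrays of each time lay above those of the time before, and DGUOK rose at the later times (0.63 and 0.92, SE 0.0601, limma adjusted p = 1.96e-06 and 5.08e-08). TK2 had 6.53, 6.47 and 6.57 on the untreated arrays, 6.52, 7.08 and 6.95 at 12 h, 7.37, 7.13 and 7.06 at 24 h, and 7.41, 7.44 and 7.49 at 72 h. TK2 rose at 24 h and 72 h (0.67 and 0.93, SE 0.123, limma adjusted p = 0.000675 and 3.74e-05). Scaled to the poly-A controls, the changes were 0.06 and 0.46 for TK2 and 0.03 and 0.45 for DGUOK at 24 h and 72 h, and no call was left. The call of TK2 at 24 h was also lost without any single array other than the first and the second of 12 h, with changes of 0.57 to 0.73 and adjusted p of 0.00103 to 0.00411.

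SAMHD1, which cleaves deoxynucleoside triphosphates, was read by a dim probe set, at percentile 24.0 of all. It changed by -0.72, -0.70 and -0.79 at 12, 24 and 72 h (SE 0.12), with treated arrays between 3.98 and 4.42 and untreated arrays between 4.80 and 4.96. The call at 12 h was lost without any one of the untreated arrays or the first or second array of 12 h, with adjusted p of 0.00119 to 0.00304 from limma. The call at 24 h was lost without the first or second untreated array or the second array or the third array of 24 h, with adjusted p of 0.00164 to 0.00243.

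Pairs of enzymes with a shared reaction were then compared on the same array, as the difference of their log2 levels, so that any shift of a whole array drops out. The 9 treated arrays were set against the 3 untreated arrays in 6 pairs by an exact two-sided permutation test, whose smallest possible p is 0.00455, and p-values were adjusted over the 6 pairs. The change of TK1 minus that of TK2 was -3.11 log2 units (exact p = 0.00455, adjusted p = 0.00909), and the difference grew over time, at -1.20 at 12 h, -3.71 at 24 h and -4.42 at 72 h. DCK against DGUOK gave -2.46 (exact p = 0.00455, adjusted p = 0.00909), with -0.94, -3.04 and -3.40 at the 3 times. RRM2 against RRM2B gave -2.51 (exact p = 0.00909, adjusted p = 0.0136), with -0.69, -3.86 and -2.98, and without the third array of 72 h the adjusted p was 0.0509 by the same exact test. On every treated array these 3 differences were below those of the untreated arrays.

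The ribonucleotide pairs were less uniform. The change of PRPS2 minus that of PRPS1 was 0.87 log2 units (exact permutation p = 0.00455, adjusted p = 0.00909), with 0.75, 1.16 and 0.69 at the 3 times. This rested on the brightest probe sets, since the mean over all probe sets of both genes gave 0.16 (exact permutation, adjusted p = 0.316). NME1 against NME2 gave -1.30 (exact permutation p = 0.0364, adjusted p = 0.0436), with -0.20, -1.45 and -2.26. Without any single array of 0 h, 24 h or 72 h the adjusted p was 0.0509 to 0.0873 by the same exact test. Over all arrays left out in turn the differences were -1.45 to -1.16. With fewer arrays the smallest possible p of this test is also higher. On every treated array the difference of NME1 and NME2 was below those of the untreated arrays. IMPDH2 against IMPDH1 gave -0.10 (exact permutation p = 0.509, adjusted p = 0.509), with 0.16, -0.28 and -0.18. At single times, 3 arrays against 3 cannot give an exact p below 0.1, so those values have no test. TK1, DCK and RRM2 are also the 3 genes with the lowest changes at 24 h, and the pairs were drawn up with results of these data known.

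**Figure D5:**
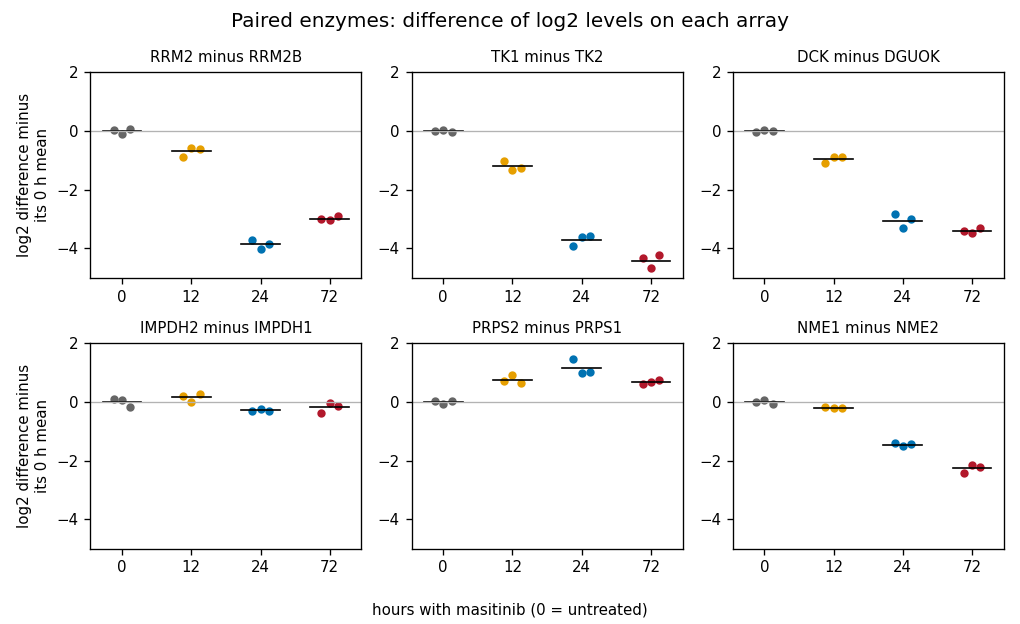
Difference of the log2 levels of paired enzymes on each array, minus the mean difference of the untreated arrays (y axis), at 0, 12, 24 and 72 h of masitinib (x axis). Points are arrays, 3 per time, and lines are means. The upper panels fall to between -3 and -5 at their lowest time, IMPDH2 minus IMPDH1 stays near 0, and PRPS2 minus PRPS1 lies above 0.

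The steps between the treated times were tested directly. Between 12 h and 24 h, 7 of the 33 genes fell and 0 rose, where 4.51% of all genes were called, 3.1% as falls and 1.41% as rises. The 7 genes were RRM2 (-3.04), TK1 (-2.17), DCK (-1.79), RRM1 (-1.74), NME1 (-1.30), TYMS (-1.02) and DTYMK (-0.72), each called by limma with an adjusted p of at most 2.2e-05. Of the genes that make PRPP or the purine ring, PAICS and PRPS1 had the lowest values, -0.51 each, under 1.5-fold. The other probe set of PAICS gave -0.69 and was called. The arrays of 24 h lay all below those of 12 h for 19 genes and all above for 4, where this held for 16.9% and 20.1% of all genes. Scaled to the poly-A controls, 14 genes fell in this step, where 8.06% of all genes fell.

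Between 24 h and 72 h, 4 genes rose and 1 fell, where 3.78% of all genes were called, 1.96% as rises and 1.81% as falls. The rises were CAD (0.73, limma adjusted p = 5.3e-05), RRM2 (0.64, adjusted p = 0.000132), ADSS2 (0.63) and RRM1 (0.60), and the fall was NME1 (-0.84, adjusted p = 1.65e-06). RRM1 and RRM2 remained far below the untreated cells at 72 h, as given above. Without the third array of 72 h the rise of RRM1 was 0.58, and without the second array of 24 h that of RRM2 was 0.57, both then under the threshold. The arrays of 72 h lay all above those of 24 h for 17 genes and all below for 5, where this held for 16.9% and 18.2% of all genes.

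Genes of the replication fork also fell, with lower medians than the deoxynucleotide genes at each time. Of 16 listed fork genes 15 were measured, and 12, 14 and 15 fell at 12, 24 and 72 h, where 6.3%, 10.0% and 11.0% of all genes fell. Their median log2 changes were -1.08, -2.54 and -2.36, and those of the deoxynucleotide genes were -0.34, -0.74 and -0.91. This difference was not tested. The largest falls at 72 h were those of CDC6 (-3.83), MCM2 (-2.83) and GINS2 (-2.83), which load or run the replicative helicase. Between 12 h and 24 h 12 of the 15 fork genes fell, in the same step as 6 deoxynucleotide genes, where 3.1% of all genes fell. The part that a smaller share of cells in S phase had in the changes of nucleotide genes was not tested.

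One-carbon units for purines and thymidylate come from the folate cycle. Of 11 listed folate genes 10 were measured, and 2, 5 and 5 fell at 12, 24 and 72 h, with 0 rises and medians of -0.29, -0.53 and -0.6, where 6.3%, 10.0% and 11.0% of all genes fell. MTHFD2, a mitochondrial folate enzyme of growing cells, fell at all 3 times (-2.06, -3.15 and -3.13, SE 0.104, limma adjusted p at most 2.27e-08). MTHFD1L, which acts after it in mitochondria, did so too (-0.89, -1.80 and -1.40), and MTHFD1, the cytosolic enzyme, fell at the later times (-1.08 and -1.24). The other 2 falls at these times were SHMT1 and SHMT2, the serine hydroxymethyltransferases, named after their values were seen.

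Further purine genes went both ways. Of 7 listed 6 were measured, with 1 rise at 12 h, 1 rise and 1 fall at 24 h, and 3 rises and 1 fall at 72 h. Called genes were thus 16.7%, 33.3% and 66.7% of the 6, where 10.6%, 18.0% and 19.8% of all genes were called in either direction. ADSS1, the paralogue of ADSS2 that is known from muscle, rose by 1.53, 1.61 and 1.00 at 12, 24 and 72 h (SE 0.0786, limma adjusted p at most 2.91e-07). PRPSAP1, a subunit associated with the PRPP synthetases, differed by 0.29 at 12 h and fell at the later times (-1.31 and -2.47, SE 0.0831). The other rises at 72 h were ADAL (0.67) and, named after its value was seen, PRPSAP2 (0.64).

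Genes of nucleotide breakdown and interconversion mostly stayed within the threshold. Of 35 listed 28 were measured, and 4 fell and 0 rose at 12 h, 4 fell and 3 rose at 24 h, and 4 fell and 2 rose at 72 h, with medians between -0.0 and 0.05. At these times 24, 21 and 22 of the 28 were not called, a share called near the 10.6%, 18.0% and 19.8% of all genes, so the counts do not set this list apart. NUDT1, which removes oxidized purine nucleotides, fell at 12, 24 and 72 h (-1.0, -2.85 and -2.21, SE 0.0731), and DCTPP1, which cleaves dCTP and its modified forms, did so too (-2.42, -2.72 and -1.80, SE 0.0772). ITPA, which cleaves ITP, fell at all 3 times, AK4 fell at 12 h and 24 h, and NT5C2 fell at 72 h, all 3 named after their values were seen. ENTPD5 rose by 0.90 at 72 h (limma adjusted p = 0.000167), PNP, purine nucleoside phosphorylase, rose at 24 h and 72 h, and NME6 and NT5C3B rose at 24 h, the last 3 named after their values were seen.

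Over the whole array set, arrays of one time had Pearson's r of 0.995 to 0.998 (across probe sets, not independent of each other), and array medians were 5.889 to 5.947. Of 9 mast cell markers 8 were measured, with mean log2 levels of 8.67 to 14.5, and FCER1A, CMA1, HDC and GATA2 rose at 24 h and FCER1A, CMA1 and GATA2 at 72 h, with 0 falls. For these and the markers below, 4.26%, 8.01% and 8.73% of all genes rose at 12, 24 and 72 h, and 6.3%, 10.0% and 11.0% fell. Markers of T and B cells (4 of 5 measured, mean levels 4.98 to 6.45) gave 1 rise, CD79A (0.64), and 1 fall, CD3D (-1.11), at 72 h, and 0 of 4 macrophage markers were called. Of 5 stromal, endothelial and epithelial markers 4 were measured, and PECAM1 rose at the later times (1.67 and 4.28) while EPCAM rose at 12 h (0.81) and fell at 72 h (-1.54). The part of these markers in the changes of nucleotide genes was not tested. The 3' minus 5' difference of the actin control probe sets, a sign of RNA integrity, was 0.565 ± 0.204, 0.46 ± 0.294, 0.667 ± 0.229 and 0.863 ± 0.243 (SD, n = 3 each) at 0, 12, 24 and 72 h, and that of GAPDH was 0.162 ± 0.0271, 0.0981 ± 0.0375, 0.138 ± 0.113 and 0.205 ± 0.0495.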

How the data were processed

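RNA was hybridized to the Canine Genome 2.0 array of Affymetrix. The authors processed the scans in Partek Genomics Suite 6.4 with its gcRMA workflow (background correction, quantile normalization, median polish), and deposited log2 values, 1 for each probe set of an array. Quantile normalization gives arrays one distribution, so a shift common to most transcripts is removed. Tool versions in the submitters' processing notes (Partek, RMA) were not given.

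After 111 control probe sets were set aside from 43035, 42924 were tested with limma 3.58.1 in R 4.3.3 (lmFit, eBayes, 1 coefficient per time, Benjamini-Hochberg adjustment). Other steps used Python 3.11.15. Of the tested probe sets 29254 had 1 gene symbol, 439 several and 13231 none, and 27680 were matched through Entrez to UU_Cfam_GSD_1.0 with 0 symbols changed. Genes were counted by their brightest probe set.

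The members, lists and pairs were chosen with earlier results of these data known. All members are named; array values are given for the 2 members per role with the largest change at 72 h among called ones and for both genes of a pair, and up to 3 genes with the largest called change at 72 h are named for each other list. The number of arrays limits the precision, with a median residual SD of 0.112. On simulated data with 42924 probe sets, 0 calls were made when nothing had been changed, and of 100 probe sets each changed 2-fold and 4-fold at 72 h, 80% and 99% were found. The simulated noise was independent between arrays and between probe sets, without effects of replicate or culture time. Far fewer probe sets were changed in it than were called in the data, so these shares need not hold for the data. Alternatives covered thresholds, the methods' analysis of variance with Storey q-values, the times in the fit, probe set choice, dim probe sets, scaling, a block for replicate number, and leaving out single arrays. Gene neighbours were read from that assembly's gene table, and no coordinate or sequence is printed.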

Additional observations from a re-analysis of the deposited data

Results flagged for a closer look

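The levels of several genes differed between the times after treatment, by the test of the time points against each other (limma, Benjamini-Hochberg adjusted p under 0.001 and over 1.5-fold). Between 12 h and 24 h, RRM1 (-1.74), RRM2 (-3.04), TK1 (-2.17), DCK (-1.79), TYMS (-1.02), DTYMK (-0.72) and NME1 (-1.3) fell, and all but NME1 belong to deoxynucleotide synthesis. Between 24 h and 72 h, NME1 fell once more (-0.84), while CAD (0.73), RRM2 (0.64), ADSS2 (0.63) and RRM1 (0.6) rose.

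Other probe sets of the same genes were called where the brightest one was not. They gave -0.63 for PRPS2, -0.72 for ADSS2 and -0.62 for TYMS at 12 h, 0.69 and 0.69 for APRT and -0.62 for ADK at 24 h, -0.69 for PAICS and -0.6 for DUT between 12 h and 24 h, and -0.89 for PRPS2 and 0.63 for ADK between 24 h and 72 h. Where the brightest probe set of a gene was called against untreated cells, its other probe sets gave 39 values, of which 29 were called in the same direction, 10 were not called and 0 were called in the opposite one.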

How the results depend on the processing

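The median of the 33 genes kept its sign in the 5 comparisons under all alternatives run, while counts near the fold threshold moved. With a threshold of 2-fold, 7, 13 and 11 genes were called at 12, 24 and 72 h and 0 between 24 h and 72 h, where 3.61%, 8.28%, 9.18% and 0.973% of all genes were called. With only 2 times in the fit, 2 genes were called between 24 h and 72 h, with CAD, ADSS2 and RRM2 lost (adjusted p = 0.00222, 0.00127 and 0.00305 from limma) and RRM1 and NME1 left, in opposite directions, and SAMHD1 was lost at 12 h (adjusted p = 0.002). Scaling to the poly-A controls gave 20 calls at 12 h and 14 between 12 h and 24 h, and medians of -0.76, -1.35, -1.05, -0.49 and 0.28 at 12, 24 and 72 h, between 12 h and 24 h and between 24 h and 72 h. Other medians that moved were -0.58 (probe set with the largest change) and -0.50 (arrays shifted to equal medians) at 12 h, -0.49 (mean of probe sets) and -0.53 (cyclic loess) at 72 h, and 0.17 (largest change), 0.12 (mean of probe sets), 0.17 (dimmest 40% left out) and 0.18 (cyclic loess) between 24 h and 72 h. Between 12 h and 24 h the median of the pyrimidine genes was -0.02 and turned to 0.03 with the largest change and 0.02 with the mean of probe sets. Between 24 h and 72 h that of the deoxynucleotide genes was 0.02, turned to -0.03 without the first array of 72 h and was 0.08 without the second. NME2 at 24 h turned to -0.59 with poly-A scaling. The cause was not tested.

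The methods' analysis of variance lost the calls of DCK at 12 h, SAMHD1 at 12 h and 24 h and TK2 at 24 h, and cyclic loess lost TK2 at 24 h (adjusted p = 0.00106 from limma). Cyclic loess gained APRT at 24 h (0.59). The mean of all probe sets lost PRPS2 and ATIC at 24 h (-0.51 and -0.37), GMPS at 72 h (-0.55) and RRM1 between 24 h and 72 h (0.48). It gained ADSS2 at 12 h (-0.65), APRT and ADK at 24 h (0.65 and -0.59) and PAICS between 12 h and 24 h (-0.6).

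With 1 array left out, 10 to 13, 20 to 23 and 18 to 19 genes were called at 12, 24 and 72 h, 7 to 7 between 12 h and 24 h and 4 to 5 between 24 h and 72 h. The medians ran from -0.51 to -0.46, -0.78 to -0.73, -0.59 to -0.56, -0.23 to -0.13 and 0.12 to 0.17. Pair differences ran from -2.75 to -2.32 for RRM2 and RRM2B, where without the third array of 72 h the adjusted p was 0.0509 by the exact permutation test, -3.37 to -2.91 for TK1 and TK2, -2.66 to -2.33 for DCK and DGUOK, -0.18 to -0.05 for the IMPDH pair, 0.79 to 0.90 for the PRPS pair and -1.45 to -1.16 for the NME pair.

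At 12, 24 and 72 h alone, the pairs gave -0.69, -3.86 and -2.98 (RRM2), -1.20, -3.71 and -4.42 (TK1), -0.94, -3.04 and -3.40 (DCK), 0.16, -0.28 and -0.18 (IMPDH), 0.75, 1.16 and 0.69 (PRPS) and -0.20, -1.45 and -2.26 (NME). The mean of all probe sets gave 0.16 for the PRPS pair. Deviations from the mean of each time had r of -0.329 to 0.411 between arrays of the same replicate number. This was above 0.1 in 5 of 18 pairs of arrays, and r was -0.455 to 0.461 between different numbers. Of the 12 arrays 6 correlated best with their own number. The first array had the lowest mean of the poly-A controls at every time, and whether the numbers mark a batch was not tested. With the replicate number as a block, 12, 21 and 18 genes were called at 12, 24 and 72 h, 7 between 12 h and 24 h and 5 between 24 h and 72 h, with SAMHD1 lost at 12 h and 24 h and TK2 at 24 h (limma adjusted p = 0.00162, 0.00135 and 0.00194), and the NME pair gave -1.30 with an adjusted p of 0.075 (exact permutation within numbers). Measurements by dim probe sets, such as those of SAMHD1 and CTPS2, are limited by signal over background.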

Other observations

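Genes that carry nucleosides and bases across membranes, a list drawn up with results of these data known, were measured for 9 of 10. Called genes were 11.1%, 33.3% and 22.2% of the 9 at 12, 24 and 72 h, where 10.6%, 18.0% and 19.8% of all genes were called. SLC25A33, a mitochondrial carrier of pyrimidine nucleotides, fell at 12, 24 and 72 h (log2 changes of -2.01, -2.17 and -1.67, SE 0.0587, limma adjusted p at most 5.34e-10). SLC43A3, a carrier of purine bases, differed by -0.23 at 12 h and fell at the later times (-1.04 and -1.14, SE 0.0692). SLC25A36, the paralogue of SLC25A33, rose by 0.68 at 24 h (SE 0.104, limma adjusted p = 0.000136) and differed by -0.04 at 72 h, and was named after its values were seen. These were the 3 genes of this list that were called at any time.

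Of 11 further genes of pyrimidine salvage and breakdown 9 were measured, and the same 2 rose at all 3 times while 0 fell, where 4.26%, 8.01% and 8.73% of all genes rose. DPYD, the first enzyme of pyrimidine breakdown, rose by 0.76, 1.19 and 1.47 at 12, 24 and 72 h (SE 0.0768, limma adjusted p at most 6.73e-06). UCKL1, a relative of the uridine kinases, rose by 0.61, 1.01 and 0.97 (SE 0.0523), where UCK2 changed by -1.20, -1.70 and -1.64.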
